A study of Mus musculus with 6 samples.

Results

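The MHC class II genes examined here were the 10 genes listed as H2-Aa, H2-Ab1, H2-Eb1, H2-DMa, H2-DMb1, H2-DMb2, H2-Oa, H2-Ob, Cd74 and Ciita, taken by symbol from the 32285 genes of the single-cell count files, and all 10 were found. They were followed across dendritic cells, macrophages, B cells, neutrophils, cancer cells and other populations of tumours that arose in the pancreas of C57BL/6 mice after injection of KPC cells, which are a murine line of pancreatic cancer. These cells had received either a vector alone (OE-Vector) or a construct that overexpresses Mlkl of the mouse, the pseudokinase that ruptures the membrane in necroptosis (OE-MLKL), while the immune cells came from hosts that carried no construct. The labels name 6 samples, of which the single OE-Vector 1 matrix and the matrices of all 3 OE-MLKL samples were analysed. The matrices of OE-Vector 2 and 3 were not analysed here. The study's methods describe young adult mice of both sexes, the sex of the mouse behind each library is not given in the sources used here, and the labels do not say whether the construct was carried by 1 clone or by a pool of cells. The study's methods describe separate tumours of separate mice, each loaded on its own. The p-values of OE-MLKL against OE-Vector thus draw on the spread between tumours of mice injected with the same cells. Those of differences between populations draw on how evenly a difference repeated within the libraries, because the library was a block there.

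Each library held between 150591289 and 169978362 UMIs, molecular tags that count a captured transcript once, and 63182 cells were kept in all, 13489 to 18808 per library. Between 0.395% and 0.741% of the cell barcodes of a library were also present in another library. Mlkl was not higher in every library labelled OE-MLKL, since cancer cells held 16.2 UMIs of it per 1000000 UMIs (CPM) in OE-Vector 1, compared with 8.31, 12.6 and 19.8 CPM in the libraries labelled OE-MLKL 1, 2 and 3, so the libraries below are named by their labels only. The labels give pancreatic cancer cells as the cell type of every sample, whereas the matrices held immune and endothelial cells as well. Cells were assigned to populations by marker genes that include no class II gene, and each population is named for these markers. Of 5 further markers per population that the gates did not use, 5 were raised over the other cells in every library in Xcr1-Clec9a dendritic cells, Ccr7-Ccl22 mature dendritic cells, macrophages and T cells, and 4 to 5 in B cells and neutrophils. In cancer cells, and in Cd209a dendritic cells of the 3 libraries in which these were checked, 3 of the 5 were raised. A gate on Ly6c2 did not hold a clear monocyte population, because genes of mast cells (Cma1, Mcpt2) or granzymes led it in some libraries and as few as 1 of its 5 further markers was raised, and its cells are left without a name. Between 13.3% and 25.2% of the cells of a library passed no gate.

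MHC class II molecules present peptides from endocytosed proteins to CD4 T cells. H2-Aa and H2-Ab1 encode the alpha and beta chains of I-A, and H2-Eb1 encodes the beta chain of I-E, whose alpha chain gene is defective in the C57BL/6 strain. Cd74 encodes the invariant chain, which fills the groove of new molecules until it is degraded. H2-DMa, H2-DMb1 and H2-DMb2 encode the chains of H2-DM, which exchanges the remnant of the invariant chain for peptides, and H2-Oa and H2-Ob encode H2-DO, which restrains H2-DM. Ciita encodes the coactivator that switches the family on. It is constitutive in dendritic cells and B cells and inducible by interferon-gamma in macrophages and many other cells.

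On the map, 8 members lay within 224335 bases of chromosome 17 (34092340 to 34316674 in GRCm38, GENCODE vM21 gene models). Cd74 and Ciita lay elsewhere, Ciita on chromosome 16 from 10480059 to 10528418. In these gene models H2-Oa is covered in full by BC051537 on the other strand (2895 bases), and H2-DMa shares 3094 bases with Brd2, H2-Eb1 2204 bases with Gm20513 and Ciita 25888 bases with Dexi, all on the other strand. Whether the counting used strand is not given in the sources used here, so reads of these pairs cannot be told apart with certainty. The longest transcripts of H2-DMb1 and H2-DMb2 were 94.6% identical over 1219 aligned bases, but their last 400 bases, near which 3′ tags fall, were 70.1% identical over 365 aligned bases with a longest identical run of 28 bases. The split of UMIs between this pair remains uncertain for reads that fell upstream of that stretch.

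The class II genes are read from a shared promoter module. An X box, bound by the RFX complex, is followed by a Y box, bound by NF-Y, and Ciita docks on the assembled factors. The 140 bases before the RefSeq transcription start (build GRCm38.p6, 5′ to 3′ on the strand of the gene) are shown for 6 members, because they let the reader see this module in the genes whose levels are compared below. Capitals mark AGCAAC and AACNNATG, which can share the letters AAC and stand here for the X box, and GATTGG for the Y box.
H2-Oa, chr17:34092239-34092378, plus strand: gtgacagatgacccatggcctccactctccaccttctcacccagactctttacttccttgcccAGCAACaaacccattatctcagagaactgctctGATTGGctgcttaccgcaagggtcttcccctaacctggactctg
H2-DMb2, chr17:34145109-34145248, plus strand: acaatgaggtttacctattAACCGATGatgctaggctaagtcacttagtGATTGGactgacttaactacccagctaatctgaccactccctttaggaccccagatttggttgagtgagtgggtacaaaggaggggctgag
H2-DMb1, chr17:34153051-34153190, plus strand: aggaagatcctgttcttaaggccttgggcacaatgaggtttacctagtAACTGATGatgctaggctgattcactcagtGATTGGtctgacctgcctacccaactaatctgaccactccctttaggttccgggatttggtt
H2-Ob, chr17:34238765-34238904, plus strand: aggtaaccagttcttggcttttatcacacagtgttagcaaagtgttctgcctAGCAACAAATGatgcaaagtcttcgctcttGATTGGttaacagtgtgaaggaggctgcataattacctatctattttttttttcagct
H2-Eb1, chr17:34305727-34305866, plus strand: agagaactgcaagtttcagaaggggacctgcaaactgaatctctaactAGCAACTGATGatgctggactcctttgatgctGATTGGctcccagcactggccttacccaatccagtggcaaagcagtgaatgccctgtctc
H2-Aa, chr17:34287824-34287963, minus strand: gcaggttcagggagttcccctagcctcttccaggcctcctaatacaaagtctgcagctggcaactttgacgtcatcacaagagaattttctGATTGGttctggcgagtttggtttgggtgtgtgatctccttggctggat
The letters of the X and Y boxes followed each other on the gene strand in 5 of the 7 members with a RefSeq promoter (H2-Oa, H2-DMb2, H2-DMb1, H2-Ob and H2-Eb1). The first letter of AAC lay 27 to 30 bases before the first letter of GATTGG. Of the letters searched, H2-Aa held only GATTGG, which started 49 bases before the transcription start. Its sequence also reads ggcaac at the same spacing before GATTGG, which differs from AGCAAC in the first letter and was not searched for. A missing match is thus not a missing X box. Of the 2 starts of H2-DMa, 1 held GATTGG at 199 bases and neither held the pair. H2-Ab1, Cd74 and Ciita were not in the promoter table. In the 250 bases before the start, on either strand, AACNNATG was present in 7.71% of all 32851 promoters, AGCAAC in 12.2% and GATTGG in 14.6%. On the gene strand, the pair at this spacing was present in 9 promoters (0.0274%), the other four being those of H2-Eb2, BC051142, Cep152 and Gm34752. The letters and the spacing were chosen from the members themselves, so this share is a description of the module and not a test of it.

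Across the tumour populations, the genes of the surface molecules fell into coarse tiers. For H2-Aa, the order among B cells, Ccr7-Ccl22 mature dendritic cells and macrophages changed between libraries. H2-Aa reached 7043, 9955, 9598 and 9448 CPM in Cd209a dendritic cells (in the order OE-Vector 1, OE-MLKL 1, 2 and 3, from 4 to 14 cells each). It reached 5483, 7134, 6107 and 5865 CPM in Xcr1-Clec9a dendritic cells, the cross-presenting subset (26 to 127 cells). Within each library H2-Aa was higher in the Cd209a subset, although the ranges over libraries overlapped. The small number of Cd209a cells left this difference untested. H2-Aa stood at 2431, 2697, 3800 and 2916 CPM in B cells, at 2694, 1526, 3429 and 3215 CPM in Ccr7-Ccl22 mature dendritic cells and at 2091, 1553, 1425 and 3249 CPM in macrophages, and these 3 populations overlapped. Below them came plasma cells with 153, 53.9, 12.2 and 130 CPM, from 1 to 38 UMIs, and the neutrophils, cancer cells and T cells considered below.

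**Figure D1:**
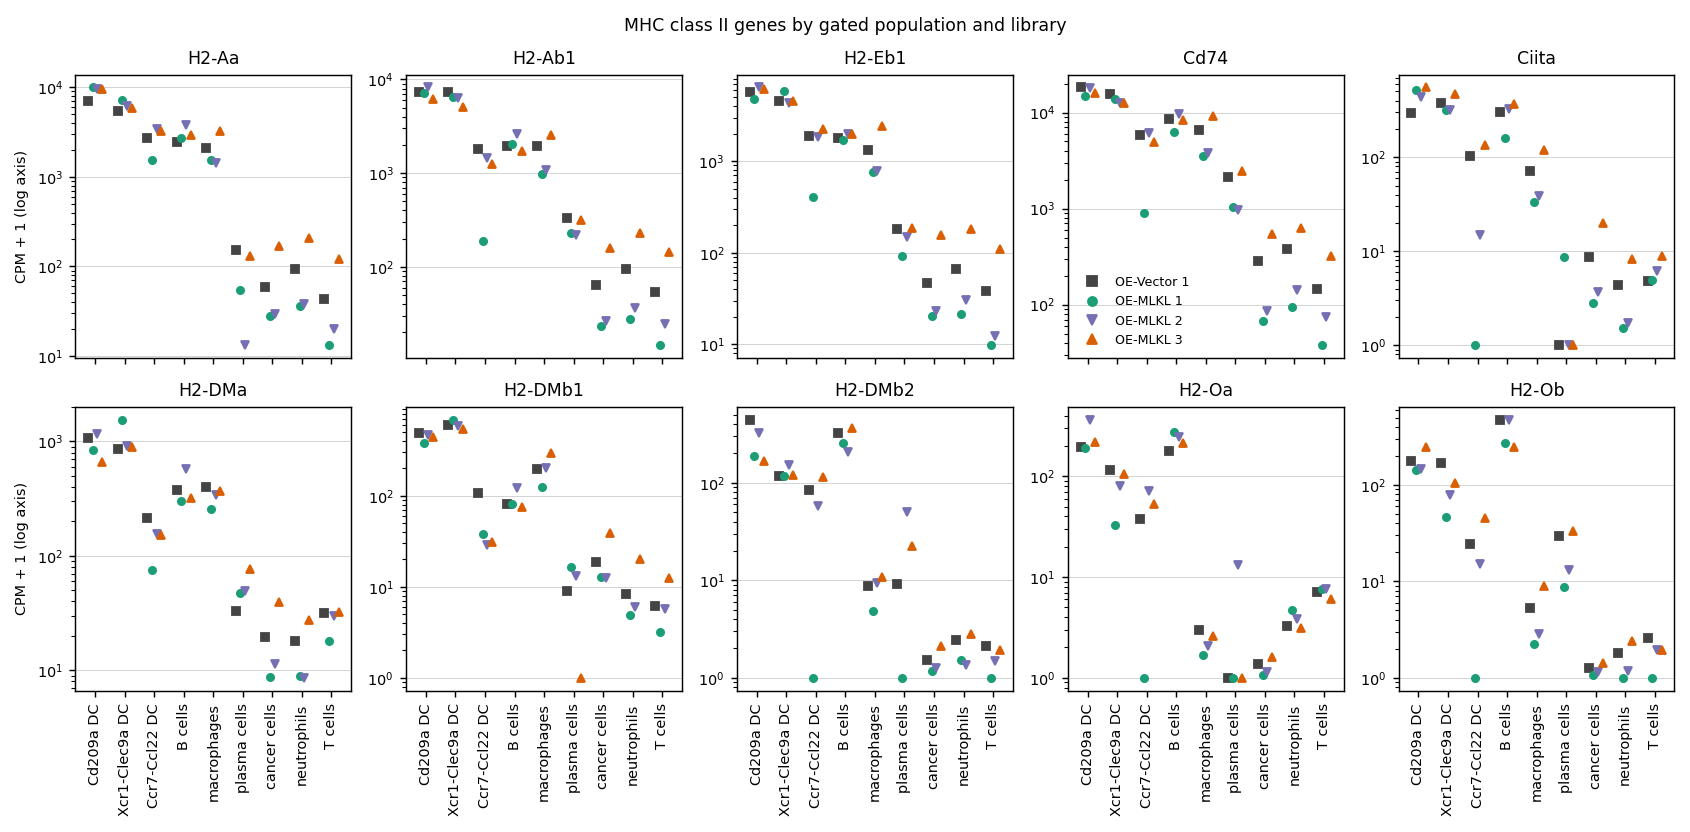
Level of each of the 10 genes (CPM plus 1, log axis) in 9 gated populations (horizontal axis), with 1 symbol per library and DC for dendritic cells. For H2-Aa the 4 libraries lie between 5483 and 9955 CPM in Cd209a and Xcr1-Clec9a dendritic cells and between 12.2 and 205 CPM in plasma cells, cancer cells, neutrophils and T cells, while for H2-Oa and H2-Ob macrophages sit with the low populations.

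With all macrophages pooled, Cd74 was also highest in Cd209a and Xcr1-Clec9a dendritic cells, but B cells lay above mature dendritic cells in every library. It reached 15433, 13900, 12637 and 12499 CPM in Xcr1-Clec9a dendritic cells. B cells held 8590, 6271, 9561 and 8300 CPM and macrophages 6560, 3495, 3755 and 9288 CPM. In OE-MLKL 3, Cx3cr1 macrophages, a subset described below, reached 13368 CPM of Cd74, above the Xcr1-Clec9a dendritic cells of that library. Macrophages that passed no subset gate reached 13105 CPM there. In the other libraries both lay below the Xcr1-Clec9a dendritic cells. Plasma cells, which shut the family down as they differentiate, still gave 2141, 1046, 974 and 2447 CPM of Cd74. This was 8.09 to 11.1 times the level expected there from free RNA, the transcripts of lysed cells that enter every droplet, whereas in the same cells H2-Ab1 was at 2.92 to 6.63 times and H2-Aa at 0.320 to 2.38 times that level. The gate held 13 to 20 plasma cells per library, in which the 6 gate markers of B cells were at 329 to 995 times and 5 further B cell markers at 9.83 to 28.0 times their expected level, while the 6 gate markers of macrophages were at 0.243 to 1.18 times. Among the further B cell markers, Ralgps2 stood at 51.8 to 74.5 CPM over all gated cells other than B cells. The gate markers of macrophages also entered the estimate of free RNA in plasma cells. Cells that passed the gates of both were left out, so the macrophage ratio is no independent check. The part of B cells in the Cd74 level was not tested.

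Ciita and the chains of H2-DO set macrophages apart from both B cells and Xcr1-Clec9a dendritic cells. Ciita stood at 374, 315, 314 and 474 CPM in Xcr1-Clec9a dendritic cells and at 298, 160, 327 and 363 CPM in B cells, against 70.0, 32.2, 38.2 and 119 CPM in macrophages, and the macrophage values overlapped with neither. H2-Ob, the beta chain of the H2-DM antagonist, stood at 472, 271, 470 and 246 CPM in B cells, at 169, 45.0, 78.4 and 104 CPM in Xcr1-Clec9a dendritic cells and at 4.33, 1.26, 1.84 and 7.99 CPM in macrophages. H2-Oa, its partner, stood at 177, 271, 245 and 214 CPM in B cells, at 115, 31.5, 78.4 and 104 CPM in Xcr1-Clec9a dendritic cells and at 1.99, 0.680, 1.06 and 1.62 CPM in macrophages. For both chains of H2-DO the 3 populations did not overlap.

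The makeup of the editing machinery differed between antigen-presenting cells. Per 100 UMIs of the 3 H2-DM genes, the 2 H2-DO genes gave 60.6 to 85.0 UMIs in B cells, 3.26 to 18.0 in Xcr1-Clec9a dendritic cells and 0.502 to 1.43 in macrophages. H2-DMb2, the second beta chain gene of H2-DM, supplied 62.5% to 82.9% of the H2-DMb UMIs in B cells, 27.3% to 47.5% in Cd209a dendritic cells, 14.6% to 20.7% in Xcr1-Clec9a dendritic cells and 2.93% to 3.95% in macrophages. These ranges did not overlap between B cells, Xcr1-Clec9a dendritic cells and macrophages. H2-DMb2 itself stood at 327, 255, 204 and 363 CPM in B cells, 116, 117, 152 and 120 CPM in Xcr1-Clec9a dendritic cells and 7.83, 3.79, 8.31 and 9.84 CPM in macrophages, while H2-DMb1 stood at 81.2, 79.8, 123 and 74.8 CPM in B cells and 197, 125, 202 and 297 CPM in macrophages. H2-DMa, the common alpha chain, lay between 303 and 572 CPM in B cells and between 258 and 398 CPM in macrophages and overlapped.

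The gates do not use the class II genes, so these population differences could be tested over the 4 libraries, with the library as a block (edgeR quasi-likelihood test, Benjamini-Hochberg adjustment over all genes). Compared with macrophages, all 10 members were higher in Xcr1-Clec9a dendritic cells, where 15.9% of the 12301 genes tested were called higher, and their median log2 fold change was 2.20 against -0.09 for all genes. The log2 difference was largest for H2-Oa (5.98 ± 0.43 SE, adjusted p = 4.26e-12), H2-Ob (4.75 ± 0.35, adjusted p = 1.46e-12), H2-DMb2 (4.07 ± 0.32, adjusted p = 5.46e-12) and Ciita (2.68 ± 0.33, adjusted p = 5.31e-08). It was smaller for H2-Ab1 (2.21 ± 0.46), H2-Aa (1.76 ± 0.42, adjusted p = 0.00131) and Cd74 (1.5 ± 0.42, adjusted p = 0.00564). All 4 libraries showed these directions. When each library was left out in turn, 9 to 10 members stayed called, the exception being Cd74 without OE-MLKL 2 (adjusted p = 0.0595).

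Compared with macrophages, B cells had 4 members higher, namely H2-Oa (6.96 ± 0.47, adjusted p = 1.13e-12), H2-Ob (6.31 ± 0.37, adjusted p = 9.51e-15), H2-DMb2 (4.99 ± 0.34, adjusted p = 2.96e-13) and Ciita (1.85 ± 0.37, adjusted p = 2.31e-04), against 10.7% of all genes. H2-DMb1 was the 1 member called lower (-1.61 ± 0.44, adjusted p = 0.00526), against 20.1% of all genes, and this call was lost without OE-Vector 1. The chains and the invariant chain did not pass, with log2 differences of 0.30 ± 0.42 for H2-Aa, 0.19 ± 0.46 for H2-Ab1, 0.38 ± 0.46 for H2-Eb1 and 0.34 ± 0.42 for Cd74. B cells and macrophages of these tumours thus differed in H2-Oa, H2-Ob, H2-DMb2 and Ciita, whereas H2-DMa did not pass (-0.19 ± 0.39) and a difference in the surface chains was not detectable over 4 libraries.

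Genes that work beside the members gave another pattern. H2-Eb2, a neighbour of H2-Eb1 in the class II region, was higher in B cells than in macrophages (log2 8.81 ± 0.60, adjusted p = 8.27e-12), with 155, 95.7, 143 and 85.5 CPM against 0.193 to 0.232 CPM. It was also called higher in Xcr1-Clec9a dendritic cells (4.51 ± 0.78, adjusted p = 4.58e-05), although its level there was only 0 to 9 CPM. Another 7 were lysosomal genes, for proteases and a thiol reductase that process the invariant chain or antigen. Of these, 5 were lower in Xcr1-Clec9a dendritic cells than in macrophages and 0 were higher, against 18.9% of all genes called lower. In B cells 7 of 7 were lower, against 20.1% of all genes. Cathepsin S (Ctss), the main protease that trims the invariant chain in these cells, lay between 422 and 652 CPM in Xcr1-Clec9a dendritic cells and between 2590 and 3640 CPM in macrophages (-2.63 ± 0.27, adjusted p = 2.44e-09), and the legumain gene Lgmn was lower by more (-6.10 ± 0.31, adjusted p = 2.74e-16). Ifi30, the lysosomal thiol reductase, did not pass in Xcr1-Clec9a dendritic cells (0.40 ± 0.20). Of 7 genes of the interferon-gamma pathway upstream of Ciita, the kinase gene Jak2 (2.32 ± 0.19, adjusted p = 9.70e-12) and Socs1, a feedback inhibitor of these kinases (1.33 ± 0.28, adjusted p = 3.76e-04) were higher in Xcr1-Clec9a dendritic cells and Jak1, Irf1 and Ifngr2 were lower. Of all genes, 15.9% were called higher there and 18.9% lower. In B cells 1 of the 7 was called higher and 4 lower, against 10.7% and 20.1% of all genes. Of 7 factors that bind the class II promoter, only Nfyb was called in Xcr1-Clec9a dendritic cells (0.98 ± 0.21 higher, adjusted p = 3.36e-04) and only Rfx5 in B cells (1.38 ± 0.42 higher, adjusted p = 0.0116). Rfx5 stood at 29.5, 16, 0 and 64.1 CPM in B cells and at 8.03 to 13.3 CPM in macrophages, so that OE-MLKL 2 went the other way. Of the ubiquitin ligases that return class II molecules from the surface, March8 was lower in both, and of 3 costimulatory genes 0 passed in Xcr1-Clec9a dendritic cells (edgeR, 0 of 3 at an unadjusted p under 0.05; DESeq2 not run) and Cd86 was lower in B cells.

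The dendritic cells were not uniform. In Ccr7-Ccl22 mature dendritic cells, which have left antigen uptake behind, H2-Ab1 stood at 1826, 186, 1434 and 1259 CPM and Cd74 at 5817, 894, 6156 and 4968 CPM, below every library of the Xcr1-Clec9a subset. The low values of OE-MLKL 1 came from 8 cells and 5 UMIs of H2-Ab1. Ciita in mature dendritic cells rested on 0 to 30 UMIs per library. With so few cells in 1 library these cells could not be fitted. Siglech plasmacytoid dendritic cells numbered 1 to 16 per library and gave between 6 and 98 UMIs of H2-Aa, and no order was read from them.

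Macrophages were divided by gates on Arg1, on Mrc1 and F13a1 without Arg1, on Cx3cr1 with low Mrc1, and on proliferation genes. For H2-Aa, Cd74 and Ciita, Cx3cr1 macrophages had the highest level of these 4 gated subsets in every library except OE-MLKL 1, where Arg1 macrophages were highest. Macrophages that passed none of the 4 gates (84, 462, 89 and 40 cells, or 5.18%, 19.9%, 4.3% and 1.67% of the macrophages) also held high levels. In them H2-Aa stood at 4993, 2723, 2984 and 4473 CPM and Ciita at 160, 53.7, 121 and 285 CPM, above the Cx3cr1 subset in OE-Vector 1 and OE-MLKL 1 for H2-Aa and in all 4 libraries for Ciita. In Cx3cr1 macrophages H2-Aa stood at 3742, 1374, 3131 and 4683 CPM, compared with 1496, 1076, 965 and 3099 CPM in Mrc1-F13a1 macrophages, 1637, 1722, 1614 and 2458 CPM in Arg1 macrophages and 1529, 871, 1174 and 2555 CPM in proliferating macrophages. Ciita was arranged alike, with 147, 27.9, 60.4 and 193 CPM in Cx3cr1 and 56.2, 25.3, 27.1 and 119 CPM in Mrc1-F13a1 macrophages, each library being higher in the Cx3cr1 subset. In OE-MLKL 1 the Cx3cr1 gate held 92 cells and 10 UMIs of Ciita.

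**Figure D2:**
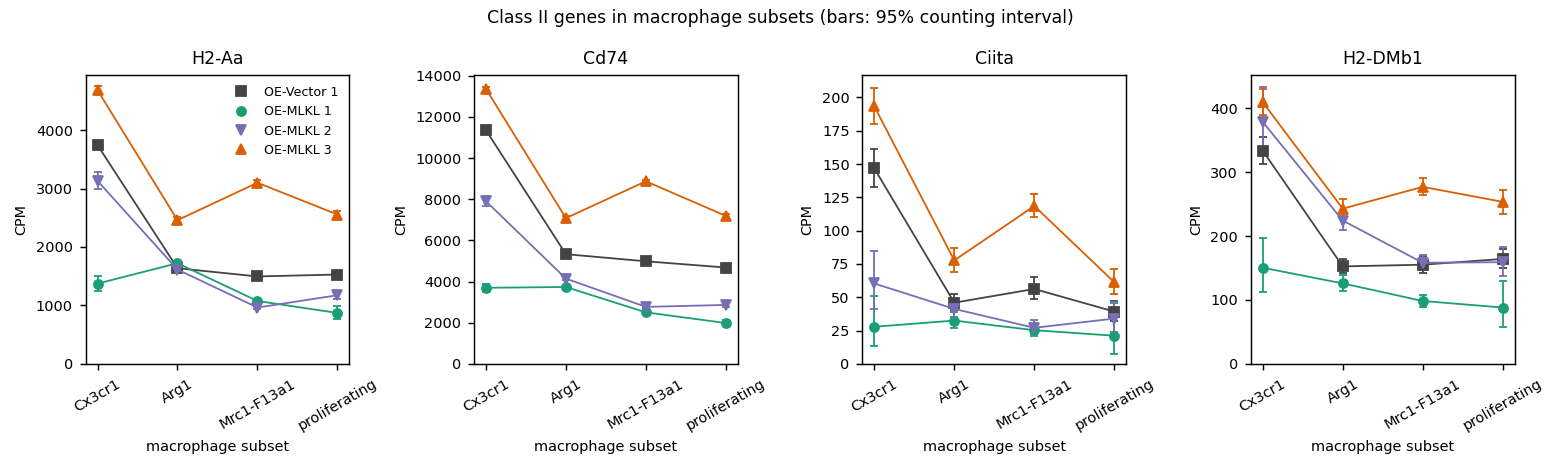
Level (CPM) of H2-Aa, Cd74, Ciita and H2-DMb1 in 4 macrophage subsets (horizontal axis), 1 line per library, with bars for the exact 95% counting interval. OE-MLKL 3 is the highest library in every panel and subset, and Cx3cr1 macrophages lie above the other 3 gated subsets (H2-Aa at 3742, 3131 and 4683 CPM) except in OE-MLKL 1, where they do so for H2-DMb1 alone.

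The subset differences did not pass the test in the 4 libraries. Between Cx3cr1 and Mrc1-F13a1 macrophages 0 of 10 members were called by edgeR, where 0.0304% of 13169 genes were called higher and 0.106% lower. The median member difference was 1.0 on the log2 scale against -0.05 for all genes, and the log2 difference was 1.02 ± 0.30 for Ciita (unadjusted p = 0.00137 and adjusted p = 0.250), 1.05 ± 0.39 for H2-Aa (adjusted p = 0.577), 1.18 ± 0.41 for H2-Ab1 and 0.97 ± 0.38 for Cd74 (adjusted p = 0.645). In this contrast 8 of the 10 members had an unadjusted p under 0.05. The share of all genes at that threshold was not counted for population contrasts, so no weight is put on this count. For Arg1 and for proliferating macrophages against the Mrc1-F13a1 subset, 0 of 10 members were called and none had an unadjusted p under 0.05, with median log2 differences of 0.27 and -0.19, against 1.04% of genes called higher and 0.121% lower for Arg1 and 5.77% higher and 4.94% lower for proliferating macrophages. Between the unnamed Ly6c2-gated cells and all macrophages 0 of 10 members were called (2 at an unadjusted p under 0.05), against 3.18% of genes higher and 5.06% lower. DESeq2 was not run on these contrasts.

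Per cell, the class II level of macrophages spread widely, and whether it fell into separate groups of cells was not tested. The summed level of H2-Aa, H2-Ab1, H2-Eb1 and Cd74 had a median over macrophages of 53.6, 22.9, 17.6 and 167 UMIs per 10000, and 40.4%, 23.5%, 26.8% and 65.9% of macrophages lay above 100. In Xcr1-Clec9a dendritic cells 97.6% to 100% of the cells lay above 100, and in B cells 68.4% to 89.5%. In cancer cells 0.0347% to 0.305% did (2 to 9 cells per library), in neutrophils 0 to 2 cells per library did, and in T cells 0 of 517 to 885 cells per library did, which in the smallest library allows a share of up to 0.58%. The depth of the macrophages differed between libraries, with medians of 8580, 4072, 4705 and 6985 UMIs per cell, so shares of cells with any UMI were not compared between them.

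**Figure D3:**
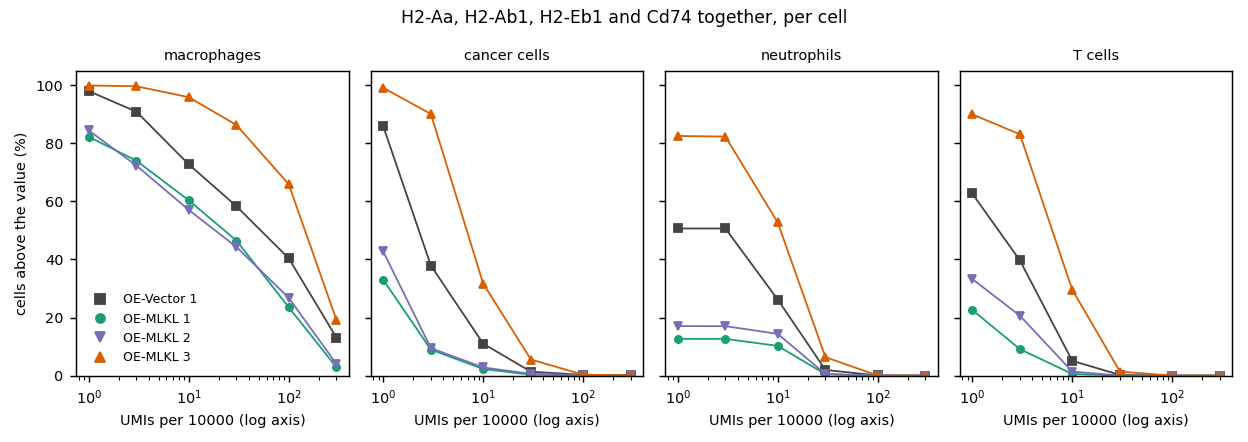
Share of cells (%) whose summed H2-Aa, H2-Ab1, H2-Eb1 and Cd74 exceed the value on the horizontal axis (UMIs per 10000 UMIs of the cell, log axis), for macrophages, cancer cells, neutrophils and T cells, 1 line per library. Above 100, 65.9% of macrophages remain in OE-MLKL 3 and 23.5% in OE-MLKL 1, while 0.305% of cancer cells at most remain in any library.

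Neutrophils, cancer cells and T cells held low amounts of class II transcripts. T cells, which in the mouse do not make class II molecules, served as the background. H2-Aa stood at 92.0, 35.6, 37.5 and 205 CPM in neutrophils, at 57.5, 26.7, 28.2 and 170 CPM in cancer cells and at 42.0, 12.2, 19.0 and 119 CPM in T cells. In all 3 the library order was that of H2-Aa in free RNA, with OE-MLKL 3 highest and OE-MLKL 1 lowest, and free RNA held 528, 252, 268 and 788 CPM in barcodes of at most 100 UMIs. Relative to the level that free RNA would give in each population, H2-Aa was at 0.657 to 0.929 in neutrophils, 0.574 to 1.11 in T cells, 1.56 to 2.58 in cancer cells and 38.4 to 69.3 in macrophages. In neutrophils and T cells H2-Aa was thus at or near the background, and it was not read as expression there.

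**Figure D4:**
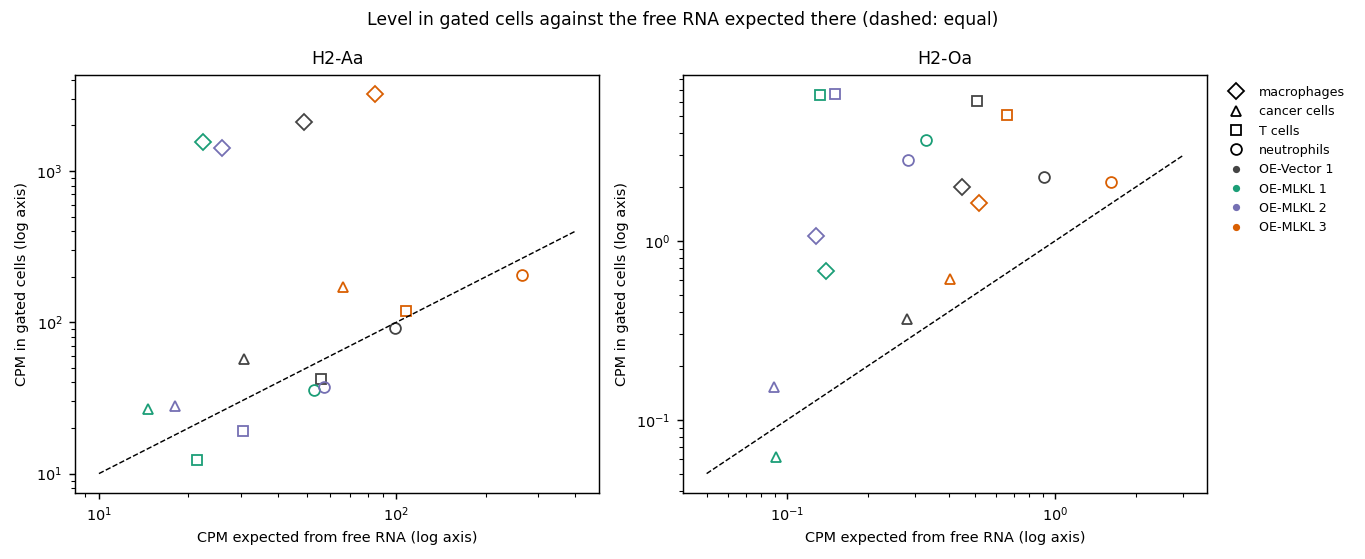
Level of H2-Aa (left) and H2-Oa (right) in gated cells against the level expected from free RNA, both in CPM on log axes, with symbols for populations, colours for libraries and a dashed line of equality. For H2-Aa neutrophils and T cells lie at 0.574 to 1.11 of the expected level and macrophages at 38.4 to 69.3 times it, while for H2-Oa T cells lie at 7.61 to 49.7 times it.

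Neutrophils minus T cells gave 5 of 10 members higher (H2-Aa, H2-Ab1, H2-Eb1, H2-DMb1 and Cd74), where 37.1% of all genes were called higher and 33.8% lower, and H2-Aa differed by 1.42 ± 0.44 (adjusted p = 0.00502). Without OE-Vector 1 the count was 2, and with doublets kept it was 1. The estimated share of free RNA was 18.7%, 21.0%, 21.3% and 33.5% of the UMIs in neutrophils and 10.6%, 8.46%, 11.4% and 13.7% in T cells, and its part in the difference was not tested. In neutrophils the 4 gate markers of Xcr1-Clec9a dendritic cells were at 4.49 to 18.3 times their expected level and 5 further ones at 1.03 to 2.99 times. Among these 5, Irf8 stood at 33.0 to 99.4 CPM over all gated cells other than those dendritic cells. The 6 gate markers of macrophages were at 0.654 to 0.841 times and 5 further ones at 1.07 to 1.73 times. For B cells these were 0.838 to 1.48 and 0.817 to 1.19 times. Gate markers of other lineages entered the estimate of free RNA, and cells that passed gates of several lineages were left out. The gate-marker ratios are thus no independent check. The part of dendritic cells, macrophages or B cells was not tested.

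Cancer cells stood above the level expected from free RNA for several members, whereas against T cells only H2-DMb1 was called higher, as given below. Ciita was at 7.76, 1.83, 2.71 and 18.7 CPM, which was 4.17 to 8.09 times the expected free RNA, and H2-DMb1 at 17.8, 11.9, 11.5 and 38.5 CPM, 4.32 to 6.82 times it. Over the same cells the 6 gate markers of macrophages were at 0.927 to 1.11 times their expected level and 5 further macrophage markers at 0.978 to 1.11 times, while H2-Oa and H2-Ob were at 0.687 to 1.89 times. The 6 gate markers of B cells were at 2.23 to 3.23 times and 5 further B cell markers at 14.9 to 22.9 times (61.4 to 97.2 CPM together). Among these 5, Ralgps2 stood at 51.8 to 74.5 CPM over all gated cells other than B cells, where the rest stood at 1.88 CPM at most. The sum of the 5 is thus not specific to B cells. For Xcr1-Clec9a dendritic cells the 4 gate markers were at 0.588 to 1.16 times and 5 further markers, Irf8 among them, at 2.0 to 2.89 times. As in neutrophils, the gate markers of other lineages entered the estimate of free RNA, so their ratios are no independent check. The part of B cells or dendritic cells in the member levels was not tested. In T cells Ciita was at 1.93 to 7.79 times its expected level, from 9 to 25 UMIs per library. Against T cells, H2-DMb1 was the 1 member called higher in cancer cells (1.66 ± 0.39, adjusted p = 4.08e-04, against 32.4% of genes) and H2-Oa (-4.42 ± 0.47, adjusted p = 1.49e-09) and H2-Ob (-1.98 ± 0.72, adjusted p = 0.0179) were lower, against 29.6% of genes. Ciita (0.34 ± 0.42) and H2-Aa (0.50 ± 0.43) did not pass. The cancer cells carried a median of 25861, 12026, 11669 and 20714 UMIs each.

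H2-Oa in T cells lay above the level expected from free RNA. It stood at 6.06, 6.56, 6.65 and 5.03 CPM in T cells (14 to 27 UMIs per library), 7.61 to 49.7 times the expected level, and at 2.26, 3.67, 2.83 and 2.13 CPM in neutrophils, above the 0.0621 to 0.610 CPM of cancer cells. The 6 gate markers of B cells in T cells were at 5.63 to 12.8 times their own expected level (3.50 to 13.5 CPM together). The 5 further B cell markers, Ralgps2 among them, were at 2.14 to 5.62 times. For Xcr1-Clec9a dendritic cells the 4 gate markers were at 0.964 to 3.04 times and 5 further markers, Irf8 among them, at 10.7 to 24.5 times in T cells. Endothelial cells held the same 5 at 10.8 to 28.3 times, so their sum is not specific to dendritic cells. The gate-marker ratios carry the same limit as in neutrophils and cancer cells. The part of B cells or dendritic cells within the T cell gate was not tested. BC051537, the gene on the other strand, covers all of H2-Oa, so the strand of these UMIs could not be settled.

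OE-MLKL was then compared with OE-Vector within each population, which asks whether class II genes differed with the construct in the cancer cells. The comparison set 1 library against 3, so that only the OE-MLKL libraries gave a spread (2 residual degrees of freedom). The quasi-likelihood test then moderates the spread of a gene towards that of all genes, so its p-values carry more degrees of freedom. A single OE-Vector library cannot be told apart from a difference between tumours, and the smallest p that an exact permutation test of any single value could reach in this layout is 0.25.

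No member passed with edgeR in any of the 13 populations fitted, which does not show that their levels were equal. In macrophages 0 of 10 members were called, where 0.0225% of 13353 genes were (3 genes, with 747 at an unadjusted p under 0.05 and 57 called by DESeq2), and 0 of the members had an unadjusted p under 0.05. H2-Aa was 2091 CPM in OE-Vector 1 (95% Poisson interval 2068 to 2115, counting error only) and 2076 ± 1018 CPM (SD, n = 3) in OE-MLKL, a log2 fold change of -0.13 ± 0.52 (adjusted p = 0.985). Cd74 was 6560 CPM and 5512 ± 3272 CPM (-0.38 ± 0.60, adjusted p = 0.949), and Ciita 70.0 CPM and 63.1 ± 48.5 CPM (-0.28 ± 0.66, adjusted p = 0.967). All 10 members had negative fold changes with a median of -0.31, compared with 0.05 for all genes and 46.0% of genes negative. Without OE-MLKL 1, 4 of the 10 were negative and 6 positive, and for H2-DMb1 the OE-MLKL mean (208 CPM) was above OE-Vector 1 (197 CPM), so no common direction was read from the members. The level of OE-Vector 1 lay inside the range of the OE-MLKL libraries for 8 of 10 members and outside it for 2, compared with 52.8% of all genes outside.

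The dendritic cells and B cells gave no call either. In Xcr1-Clec9a dendritic cells 0 of 10 members passed (0.0151% of 6633 genes called by edgeR, 1 gene, and 2 by DESeq2), with a median of -0.08. H2-Aa was 5483 CPM in OE-Vector 1 and 6369 ± 674 CPM in OE-MLKL (0.16 ± 0.56), and Cd74 15433 and 13012 ± 772 CPM (-0.31 ± 0.57). H2-Ob was 169 CPM in OE-Vector 1 against 75.9 ± 29.8 CPM, the OE-Vector library being above all 3 OE-MLKL libraries (-1.18 ± 0.45, unadjusted p = 0.0135 and adjusted p = 0.835). OE-Vector 1 lay outside the OE-MLKL range for 7 of the 10 members in these cells, 4 above and 3 below, compared with 44.5% of all genes. In all dendritic cells together 0 of 10 members passed (0 at an unadjusted p under 0.05), against 0.18% of 8317 genes, and 5 members lay outside the range, against 43.2% of genes. This pool mixes subsets of different class II levels without equal weight. H2-Eb1 of OE-Vector 1 was below the OE-MLKL range in the pool (3666 CPM against 3780 to 5211 CPM). In the Xcr1-Clec9a subset it was inside the range (4508 CPM within 4350 to 5884 CPM). In B cells 0 of the 9 members tested passed, against 1.64% of 1827 genes, with H2-Aa at 2431 CPM and 3138 ± 584 CPM (0.36 ± 0.56) and Cd74 at 8590 and 8044 ± 1660 CPM (-0.11 ± 0.58), and OE-Vector 1 lay outside the OE-MLKL range for 3 of 9, against 44.1% of genes. In the unnamed Ly6c2-gated cells 0 of 8 members tested passed, against 1.02% of genes, and 3 lay outside the range, against 46.0%.

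In the low populations the picture was the same. In neutrophils 0 of 9 members passed, against 0.0% of 12422 genes by edgeR (943 at an unadjusted p under 0.05, and 49 called by DESeq2), and H2-Aa was 92.0 CPM against 92.8 ± 97.3 CPM. Its fitted log2 fold change on TMM-scaled counts was -0.23 ± 0.95, and with library size alone it was 0.018, so it had no stable direction. In cancer cells 0 of 10 passed, against 0.00595% of 16800 genes (1 gene, and 76 by DESeq2), and H2-Aa was 57.5 against 75 ± 82.4 CPM (0.17 ± 0.95) and Cd74 283 against 233 ± 273 CPM (-0.50 ± 1.01). In T cells 0 of 8 passed, against 0.0442% of genes, and in endothelial cells 0 of 7, against 1.03%. OE-Vector 1 lay outside the OE-MLKL range for 0 of 9 members in neutrophils (57.0% of genes), 0 of 10 in cancer cells (48.2%), 1 of 8 in T cells (43.3%) and 1 of 7 in endothelial cells (47.4%). The spread of the OE-MLKL libraries exceeded the mean for H2-Aa in neutrophils and cancer cells, with OE-MLKL 3 far above the other two.

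**Figure D5:**
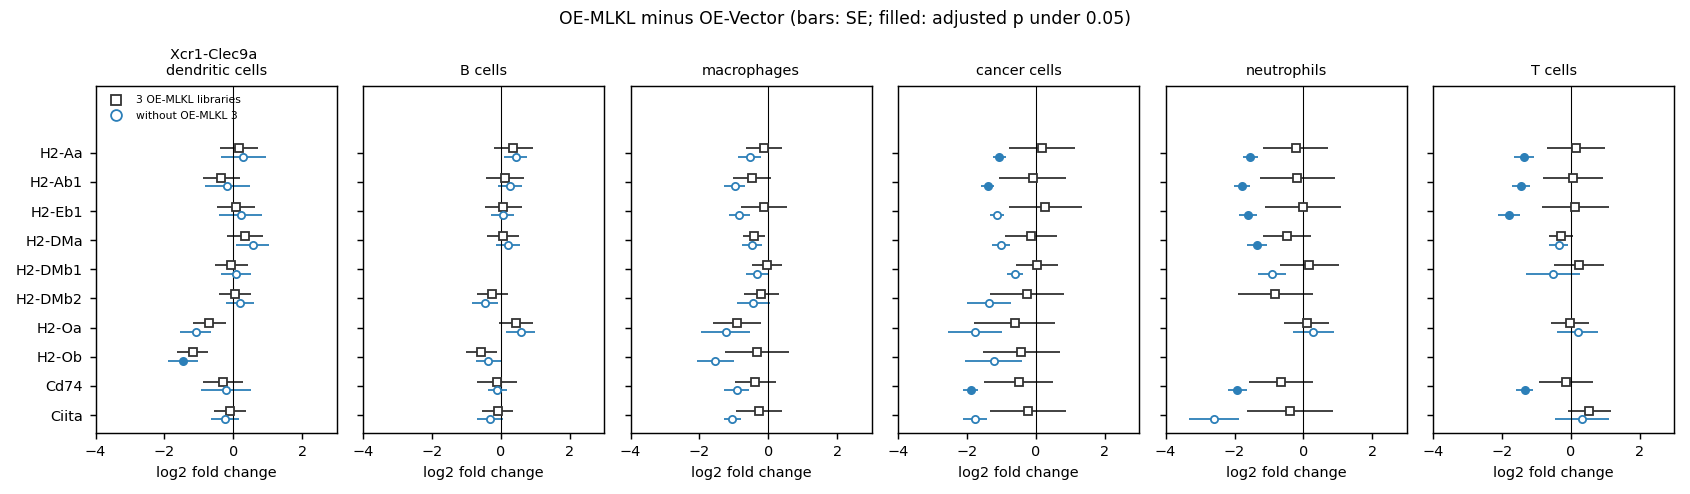
Log2 fold change of OE-MLKL minus OE-Vector (horizontal axis) for the members tested in 6 populations, with SE bars, squares for the 3 OE-MLKL libraries and circles without OE-MLKL 3, filled where the adjusted p was under 0.05. No square is filled, and without OE-MLKL 3 the filled circles are 5 members in neutrophils, 4 in T cells, 3 in cancer cells and H2-Ob in Xcr1-Clec9a dendritic cells.

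OE-MLKL 3 stood above the other libraries in class II genes in some populations and not in others. It was the highest of the 4 libraries for 10 of 10 members in cancer cells (48.2% of all genes), 8 of 9 in neutrophils (32.4%), 7 of 8 in T cells (47.0%) and 8 of 10 in macrophages (38.1%). It was the highest for 1 of 10 members in Xcr1-Clec9a dendritic cells (31.4%), 1 of 10 in all dendritic cells (32.6%), 3 of 9 in B cells (38.2%) and 1 of 8 in Ly6c2-gated cells (39.0%). In the macrophage subsets it was the highest for 8 of 9 members in Arg1 (39.7%), 8 of 9 in Mrc1-F13a1 (33.8%), 7 of 9 in Cx3cr1 (32.5%) and 7 of 9 in proliferating macrophages (33.4%), and in endothelial cells for 6 of 7 (30.3%). Free RNA of the same library held the most H2-Aa, as given above.

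The fold changes depended on the choice of OE-MLKL libraries. With OE-MLKL 1 or 2 removed, the median was 0.026 and 0.12 in neutrophils and 0.21 and 0.15 in cancer cells, and no member was called in either. Leaving out OE-MLKL 3 removes the library just given as the highest, so that lower OE-MLKL values follow from that choice. The fit of 1 library against 2 has 1 residual degree of freedom before the moderation over all genes. Its values are given as a description. The median log2 fold change without OE-MLKL 3 was -0.88 in macrophages (0 of 10 members called, 0.848% of genes), -1.58 in neutrophils (5 of 8 members called lower, 11.6% of genes called and 7.63% called lower), -1.29 in cancer cells (3 of 10, 2.1% called and 1.62% lower) and -0.93 in T cells (4 of 8, 6.59% called and 3.75% lower). H2-Aa was then -1.54 ± 0.22 in neutrophils, -1.06 ± 0.19 in cancer cells and -1.37 ± 0.29 in T cells, the background population. Cd74 was -1.92 ± 0.26, -1.90 ± 0.21 and -1.34 ± 0.25 in the same populations. In Xcr1-Clec9a dendritic cells the median was -0.05 and H2-Ob alone was called (-1.47 ± 0.43, against 2.39% of genes), and in Cx3cr1 macrophages Ciita alone (-1.71 ± 0.37, against 2.02% of genes). No member was called in dendritic cells together (1.81% of genes called), B cells (5.29%), Ly6c2-gated cells (4.8%), Arg1 (6.07%), Mrc1-F13a1 (1.57%) and proliferating macrophages (2.39%) or endothelial cells (0.0335%). The pattern in neutrophils, cancer cells and T cells moved with the free RNA level of H2-Aa, which was 528 CPM in OE-Vector 1 and 252 and 268 CPM in OE-MLKL 1 and 2, and the part of free RNA in it was not tested.

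The gates gave the macrophage subsets different shares in the libraries. Cx3cr1 macrophages made up 21.1%, 3.97%, 6.14% and 26.2% of the macrophages, and Mrc1-F13a1 macrophages 25%, 47.0%, 44.1% and 38.5%. The Cx3cr1 gate took any UMI of Cx3cr1, and depth differed between libraries, so these shares are not read as differences in makeup. With equal weight for the 4 subsets H2-Aa was 2101, 1261, 1721 and 3199 CPM and the highest library was 2.54 times the lowest, compared with 2.28 times in the pooled sum. This weighting leaves out the macrophages that passed none of the 4 gates. The range between libraries was wider with equal weight for 8 of 10 members, as for Ciita (4.22 times against 3.70 times) and H2-DMb2 (4.72 times against 2.60 times), and narrower for H2-Oa (1.98 times against 2.93 times) and H2-Ob (5.90 times against 6.33 times). Within the subsets 0 of 9 members passed OE-MLKL against OE-Vector by edgeR in Arg1 (0.122% of genes), Mrc1-F13a1 (0.0%, with 594 genes at an unadjusted p under 0.05 and 12 called by DESeq2), Cx3cr1 (0.0198%) and proliferating macrophages (0.0472%). OE-Vector 1 lay outside the OE-MLKL range for 0 of 9 members in Arg1 (55.6% of genes), 1 in Mrc1-F13a1 (53.0%), 2 in Cx3cr1 (43.5%) and 2 in proliferating macrophages (42.7%). Scaling by library size alone, without TMM, moved the median of all genes to 0.15 in macrophages, 0.27 in neutrophils and 0.13 in cancer cells, and 9 of 10 members in place of 10 were then negative in macrophages.

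The neighbouring genes of the pathway (promoter-binding factors, interferon-gamma genes, lysosomal proteases and reductase, class II ubiquitin ligases, costimulatory genes and H2-Eb2) had no call by edgeR between OE-MLKL and OE-Vector. Called and tested were 0 of 26 in macrophages, 0 of 25 in dendritic cells, 0 of 11 in B cells, 0 of 26 in neutrophils and 0 of 26 in cancer cells, against the shares of all genes given above. At an unadjusted p under 0.05 these counts were 0, 0, 1, 4 and 2. DESeq2 called 1 of them, the interferon-gamma receptor gene Ifngr1 in cancer cells (-1.80 ± 0.48, adjusted p = 0.0383), where edgeR gave -1.81 ± 0.41 (adjusted p = 0.998). Ciita itself was higher in OE-Vector 1 and OE-MLKL 3 than in the other two libraries in macrophages (70.0 and 119 CPM against 32.2 and 38.2 CPM) and in cancer cells (7.76 and 18.7 CPM against 1.83 and 2.71 CPM).

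Finally, the genes whose level was most like that of the class II core were looked for over 40 sums (10 populations in 4 libraries) that share libraries and depth, as a description. Of 7876 genes that reached 50 CPM in at least 1 sum, the non-members with the highest Pearson correlation with the mean log2 level of H2-Aa, H2-Ab1, H2-Eb1 and Cd74 were Cd180 (0.919), Ly86 (0.918), Fgd2 (0.912), Pld4 (0.906) and Tbc1d9 (0.903). Cd180 encodes a relative of the Toll-like receptors on B cells and myeloid cells, and Ly86 encodes MD-1, the protein it pairs with. Among the members outside that mean, H2-DMa (0.958), H2-DMb1 (0.951) and Ciita (0.924) followed it closely, whereas H2-DMb2 (0.772), H2-Ob (0.701) and H2-Oa (0.455) followed it less, with macrophages high in the core and low in these 3 genes.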

How the data were processed

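The study profiled tumours of 6 samples with droplet 3′ tag libraries of single cells. The authors deposited raw, unfiltered UMI counts per gene and barcode, and matrices of 4 libraries were used. The labels list mm10 and Cell Ranger 2.1.1, whereas the file headers give 7.1.0 and the study's methods name a further version, and whether introns or strand were used in counting is not given in the sources used here. Total counts per library set the precision.

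A barcode was kept as a cell from 500 UMIs upwards if over 200 genes were detected and mitochondrial genes took less than 10% of its UMIs. Cells with over 5% haemoglobin UMIs were removed, and doublets were removed at 0.8% per 1000 cells (11363 cells). A population gate required marker UMIs at least 3 times those expected from free RNA and at least 2 distinct markers. Within macrophages, the Arg1 and Mrc1-F13a1 gates required at least 2 UMIs and 3 times free RNA. The Cx3cr1 gate required any UMI of Cx3cr1 in cells outside those gates, and the proliferation gate at least 3 UMIs of at least 2 genes. For cancer cells the limits were 0.5 times, 3 markers and 2000 UMIs, set after seeing the data, because the free RNA came largely from those cells. Cells that passed gates of several lineages were left out. The dendritic, macrophage and Ly6c2 gates counted as a single lineage, as did the B and plasma cell gates. Free RNA was read from barcodes with 100 UMIs or fewer, and its share in a population from gate markers of other lineages. The ratios of those markers to their expected level are therefore no independent check of that share. Counts were summed per population and library, and populations with at least 20 cells in each library were tested with edgeR 4.0.16 (TMM, filterByExpr, quasi-likelihood test, two-sided, Benjamini-Hochberg over all genes, threshold 0.05). Fits of OE-MLKL against OE-Vector were tested on simulated data in macrophages, neutrophils, cancer cells, B cells and dendritic cells, where most of the smallest changes were missed and, except in B cells, the share of false calls exceeded the threshold. DESeq2 1.42.0, other scalings, filters, gates and left-out libraries were the alternatives, some added after seeing the data. R 4.3.3 and Python 3.11.15 were used. The rule for named genes was all 10 members, pathway genes that passed, and the 5 non-members most correlated with the core. The members and lists were chosen with earlier results of these data known. Exact 95% Poisson intervals cover counting error only.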

Additional observations from a re-analysis of the deposited data

How the results depend on the processing

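The comparison rests on 1 OE-Vector library, and changes under about the spread of the OE-MLKL libraries were not detectable. No paired analysis was possible because the groups share only replicate number 1 among the libraries analysed. Over 117 single member results and 1178 alternative fits, 1024 kept their sign and stayed uncalled, 144 changed sign and 14 were called, 4 of which also changed sign (H2-Aa, H2-Ab1 and H2-Eb1 in T cells and H2-Aa in cancer cells), and all 14 calls came from leaving out a library (0 of 834 other fits). The cause of these changes was not tested.

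Genes called numbered 3 in macrophages and 57 (DESeq2), 20 (no filter on low counts), 16 (stricter gate) and 1 (gates at 1000 UMIs) otherwise. In Ly6c2-gated cells 50 became 10 (DESeq2), 19 (doublets kept) and 103 (no filter). In dendritic cells 15 became 0 (DESeq2), 8 (doublets), 6 (free RNA subtracted), 5 (library size alone), 38 (no filter) and 24 (stricter gate). B cells went from 30 to 4 (DESeq2). Neutrophils went from 0 to 49 (DESeq2) and 41 (no filter). Cancer cells went from 1 to 76 (DESeq2), 0 (free RNA subtracted), 0 (gates at 1000 UMIs), 2 (no filter) and 2 (stricter gate). Xcr1-Clec9a dendritic cells went from 1 to 29 (doublets), 27 (free RNA subtracted), 26 (no filter) and 31 (stricter gate), Arg1 macrophages from 14 to 67 (DESeq2), 160 (no filter) and 191 (stricter gate), and endothelial cells from 74 to 9 (DESeq2), 176 (no filter) and 0 without OE-MLKL 1. Without filter, Cx3cr1, Mrc1-F13a1 and proliferating macrophages and T cells gave 47, 27, 44 and 134. Leaving out an OE-MLKL library gave 0 to 109 genes in macrophages, 36 to 223 in Ly6c2-gated cells, 21 to 96 in dendritic cells, 20 to 66 in B cells, 13 to 1394 in neutrophils and 23 to 340 in cancer cells.

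The median member fold change in B cells was -0.27 with doublets kept and -0.24 with no filter, and in neutrophils -5.74 after free RNA subtraction, which left 2 members. In Mrc1-F13a1 macrophages it went from -0.09 to 0.39 with gates at 1000 UMIs, and in Ly6c2-gated cells from 0.04 to -0.23 with doublets kept. In T cells it went from 0.097 to 0.97 with doublets kept and 6.55 after free RNA subtraction. Leaving out an OE-MLKL library gave medians of -0.88 to 0.01 in macrophages, -0.39 to 0.20 in Ly6c2-gated cells, -0.085 to 0.13 in dendritic cells, -0.17 to 0.07 in B cells, -1.58 to 0.12 in neutrophils and -1.29 to 0.21 in cancer cells.

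Members called between populations numbered 4 to 5 (B cells and macrophages), 2 to 4 (cancer and T cells), 0 to 1 (Ly6c2-gated cells and macrophages), 2 to 6 (neutrophils and T cells) and 9 to 10 (Xcr1-Clec9a dendritic cells and macrophages) when a library was left out. With doublets kept, 1 member was called for Ly6c2-gated cells and 1 for neutrophils. A summed level of 16248 CPM was obtained for the Ly6c2-gated cells under the stricter gate, and no change is read from this single value. H2-Aa turned to 0.018 in neutrophils with library size alone and to -0.011 in T cells with gates at 1000 UMIs, and Cd74 in T cells to 0.91 with doublets kept and 8.44 after free RNA subtraction. With an OE-MLKL library left out, H2-Aa ranged from -0.55 to 0.062 in macrophages, -1.54 to 0.15 in neutrophils, -1.06 to 0.55 in cancer cells, -0.0076 to 0.29 in Xcr1-Clec9a dendritic cells and -1.37 to 0.57 in T cells, Ciita from -1.05 to 0.011 in macrophages and Cd74 from -1.34 to 0.28 in T cells.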
